A study of Mus musculus with 12 samples.

Results

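Transcripts of 9 genes for transport of bicarbonate, protons and magnesium were followed in heart muscle after coronary ligation, with and without local delivery of an adenosine receptor agonist. The genes were chosen by symbol: Slc4a4, Slc4a3, Slc16a1 and Car14 for acid-base transport, and Slc41a1, Slc41a3, Cnnm2, Trpm7 and Mrs2 for magnesium. Each symbol matched 1 Ensembl row, and these are 9 of the 56647 gene rows valued in all libraries. Of the 9, 8 passed the filter on low counts, the exception being Cnnm2. Slc4a4 and Slc41a3 had already been called lower in infarcted than in sham hearts of these mice when the genes were chosen, so values of that comparison are given as a description and not as a test.

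All mice were wild type and the tissue was labelled as myocardial. Sham vehicle mice (n = 3) are labelled as sham in one field and as vehicle in another. MI mice (n = 3) had a ligated left coronary artery, which causes myocardial infarction, and their labels name neither vehicle nor a delivery. NECA-treated MI mice (n = 4) had the adenosine receptor agonist NECA, 5′-(N-ethylcarboxamido)adenosine, placed locally in the infarcted muscle. With no MI group labelled as given vehicle, an effect of the agonist and one of the procedure cannot be told apart. Neither the labels nor the design text state age, sex or the time from ligation to sampling. Transcripts were read at their 3′ ends by a form of CEL-Seq2.

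A heart cell that pumps against a load makes carbon dioxide and, when oxygen is short, lactate, and both acidify it. Carbonic anhydrases convert carbon dioxide to bicarbonate and a proton. Sodium-bicarbonate cotransporters and sodium-proton exchangers raise the pH of the cell, chloride-bicarbonate exchangers lower it, and monocarboxylate transporters carry lactate together with a proton. Magnesium binds most of the ATP in the cell and tunes many ion channels. Slc41 proteins, CNNM proteins and the TRPM7 channel move it or regulate its movement across membranes, and Mrs2 is a magnesium channel of the inner mitochondrial membrane.

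The 10 libraries of lower depth, 1 from each mouse, held 959840 to 1330259 counts, so that 1 count stood for 0.752 to 1.04 counts per 1000000 of the library (CPM). MI mice 2 and 3 each had a further library, named 1st, with 30745429 and 27130817 counts, which made up 96.9% and 96.6% of the summed counts of those mice. The 1st libraries have values for a partly different set of gene rows and come from MI mice only. The 2nd libraries of the same mice give the difference between libraries within a mouse, and values from the 10 lower-depth libraries are given beside those from all libraries. All 8 cardiomyocyte markers were detected in every library. Sham vehicle mouse 3 had a summed 3300 CPM of the 4 atrial markers, against at most 10.2 CPM in any other library.

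Ordered by TPM, the transcripts per 1000000, which divides by length, the sham vehicle means in this gene group were led by Slc4a3 at 89.9 ± 8.36 TPM and Car14 at 72.7 ± 14.2 TPM (SD, n = 3). Slc16a1 followed at 39.1 ± 2.29 TPM, Slc41a3 at 25.0 ± 1.34 TPM, Slc41a1 at 17.0 ± 1.37 TPM and Trpm7 at 13.3 ± 6.81 TPM. Mrs2 had 7.60 ± 0.472 TPM, Slc4a4 3.56 ± 1.02 TPM and Cnnm2 1.25 ± 0.287 TPM. Neighbours in this order whose sham vehicle mice overlapped were Slc4a3 with Car14, Slc41a1 with Trpm7, and Trpm7 with Mrs2. The reads came from transcript ends, whose number does not scale with length, so this order depends on the length correction the authors applied, and levels are otherwise given in CPM and compared within a gene.

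**Figure D1:**
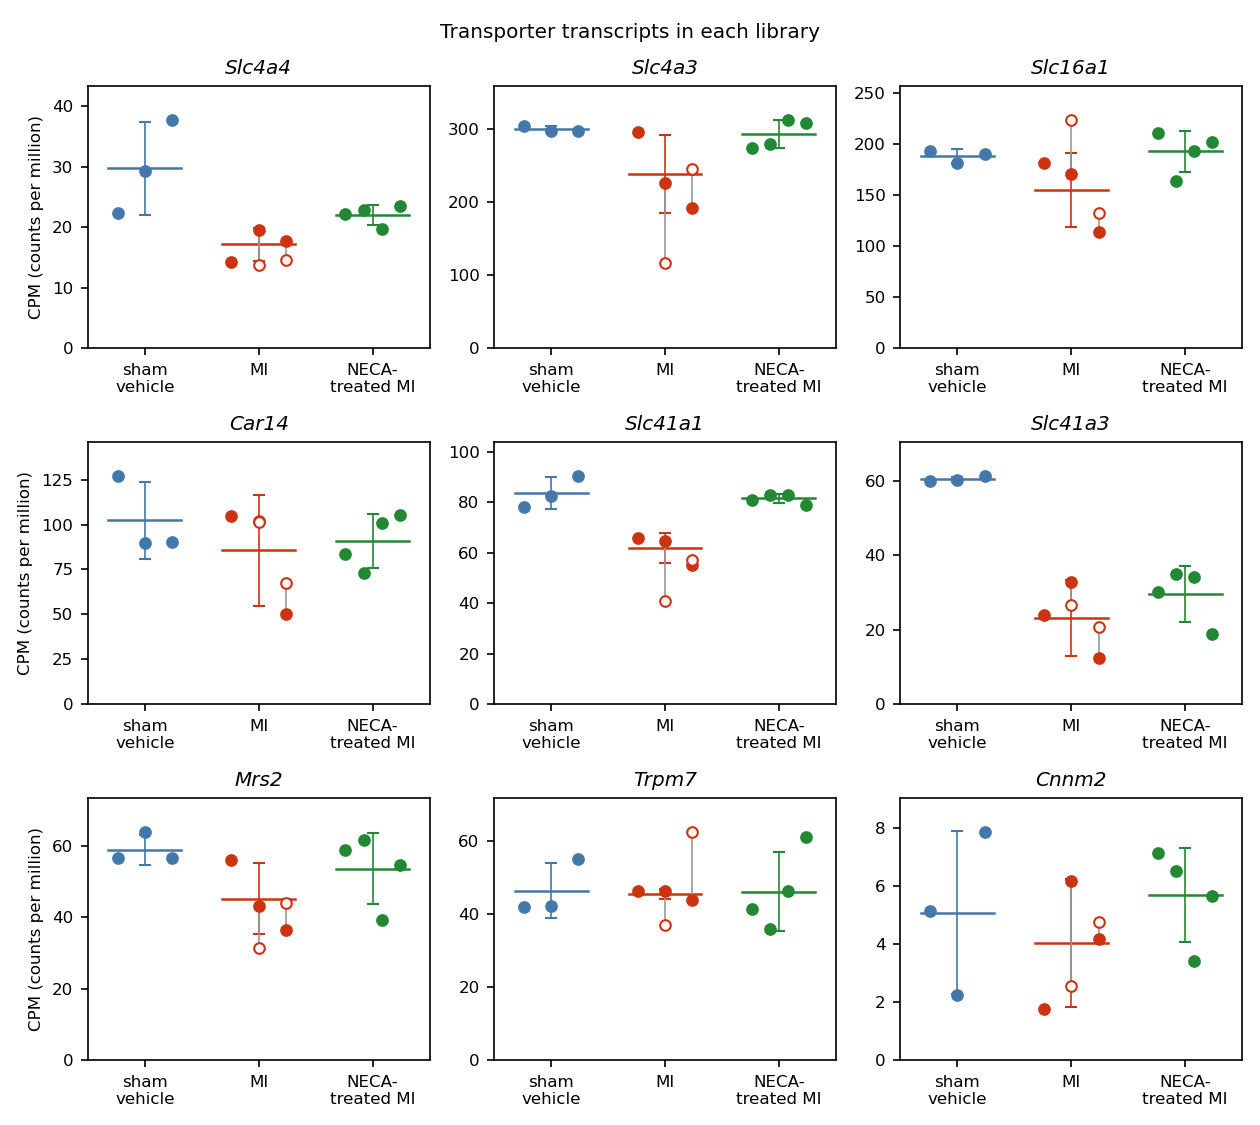
CPM (y axis, from 0) of each of the 9 genes in each library by group (x axis); filled points are the 10 lower-depth libraries, open points the 1st libraries of MI mice 2 and 3 joined by a line to the 2nd library of the same mouse, and bars show the mean ± SD of the filled points. The 3 sham vehicle values of Slc41a3 lie at 60.0 to 61.3 CPM, above every MI and NECA-treated MI library, while Trpm7 overlaps between all groups.

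Slc4a4 (ENSMUSG00000060961) encodes NBCe1, the electrogenic sodium-bicarbonate cotransporter that brings bicarbonate into heart muscle cells. It had 22.3, 29.3 and 37.7 CPM in sham vehicle mice 1 to 3. MI mouse 1 had 14.2 CPM, and the 1st and 2nd library gave 13.7 and 19.6 CPM in MI mouse 2 and 14.6 and 17.7 CPM in MI mouse 3. NECA-treated MI mice 1 to 4 had 22.3, 22.8, 19.7 and 23.5 CPM. Every MI library lay below every sham vehicle mouse. The NECA-treated mice lay above all MI libraries, though NECA-treated mouse 3, at 19.7 CPM, hardly exceeded the higher library of MI mouse 2, and overlapped with the lowest sham vehicle mouse. The lower-depth values rest on 16 to 48 counts each.

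Slc4a3 (ENSMUSG00000006576) encodes AE3, the chloride-bicarbonate exchanger of heart and brain that exports bicarbonate. The sham vehicle mice had 304, 298 and 297 CPM and the NECA-treated mice 274, 280, 312 and 308 CPM. MI mouse 1 had 297 CPM, while 1st and 2nd library gave 117 and 226 CPM in MI mouse 2 and 245 and 192 CPM in MI mouse 3. The low values thus belonged to MI mice 2 and 3, while MI mouse 1 lay just under the lowest sham vehicle mouse.

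Slc16a1 (ENSMUSG00000032902), the gene of the lactate and pyruvate transporter MCT1, had 194, 181 and 190 CPM in sham vehicle mice and 212, 164, 193 and 202 CPM in NECA-treated mice. In MI mouse 1 it had 181 CPM, in MI mouse 2 it had 224 and 171 CPM, and in MI mouse 3 it had 133 and 114 CPM. Only the 2 libraries of MI mouse 3 lay below all other libraries. Car14 (ENSMUSG00000038526), a carbonic anhydrase that faces the outside of the cell, showed the same mouse as lowest, with 67.2 and 50.0 CPM there, against 73.2 to 127 CPM in all other libraries. Its groups overlapped.

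Slc41a3 (ENSMUSG00000030089), a member of the Slc41 family of magnesium transporters, had 60.0, 60.1 and 61.3 CPM in the sham vehicle mice. MI mouse 1 had 24.0 CPM, MI mouse 2 had 26.6 and 32.9 CPM (1st and 2nd library), and MI mouse 3 had 20.6 and 12.5 CPM. The last of these rests on 12 counts. The NECA-treated mice had 30.2, 35.0, 34.2 and 18.8 CPM. Every library of an infarcted heart, treated or not, lay below all sham vehicle mice, and the MI and NECA-treated mice overlapped.

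Slc41a1 (ENSMUSG00000013275), its relative, which exchanges magnesium for sodium at the cell surface, had 78.0, 82.7 and 90.4 CPM in sham vehicle mice and a narrow 81.1, 83.0, 83.0 and 79.1 CPM in NECA-treated mice. MI mouse 1 had 65.7 CPM, MI mouse 2 had 40.8 and 64.8 CPM, and MI mouse 3 had 56.9 and 55.2 CPM. All MI libraries lay below both other groups, which overlapped. Mrs2 (ENSMUSG00000021339) had 56.6, 63.9 and 56.6 CPM in sham vehicle mice and 58.8, 61.8, 39.4 and 54.6 CPM in NECA-treated mice. MI mouse 1 had 56.0 CPM, next to the sham vehicle mice, while the libraries of MI mice 2 and 3 had 31.4 to 43.9 CPM.

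Trpm7 (ENSMUSG00000027365), a cation channel that carries magnesium and calcium and has a kinase domain, ranged from 42.0 to 55.0 CPM among sham vehicle mice, from 36.9 to 62.4 CPM among MI libraries and from 35.8 to 61.2 CPM among NECA-treated mice, and the groups overlapped. Cnnm2 (ENSMUSG00000064105), a membrane protein of magnesium handling known from the kidney, was near the limit of detection. It had 3 to 10 counts in each sham vehicle mouse, or 2.26 to 7.86 CPM, 2 to 6 counts in the lower-depth MI libraries and 4 to 9 counts in the NECA-treated mice. The 1st libraries, with 78 and 129 counts, gave 2.54 CPM (95% exact Poisson interval 2.01 to 3.17) and 4.75 CPM (3.97 to 5.65). A difference in Cnnm2 between groups was not detectable at this depth, and it was left out of the tests by the count filter.

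The repeated libraries show how far 1 mouse can differ from itself. For MI mouse 2 the 95% exact Poisson intervals of the 1st and 2nd library were apart for 3 of 9 genes, with Slc4a3 and Slc41a1 lower in the 1st library and Slc16a1 higher. For Slc4a3 the values were 117 CPM (113 to 121) and 226 CPM (197 to 258), a ratio of 1st to 2nd library of 0.517. For MI mouse 3 they were apart for 2 of 9, Slc4a3 and Trpm7, both higher in the 1st library, with a ratio of 1.28 for Slc4a3 and 1.43 for Trpm7. The difference between libraries of Slc4a3 therefore ran in opposite directions in the 2 mice. The intervals cover counting error only. The intervals of Slc4a4 and Slc41a3 overlapped in both mice.

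**Figure D2:**
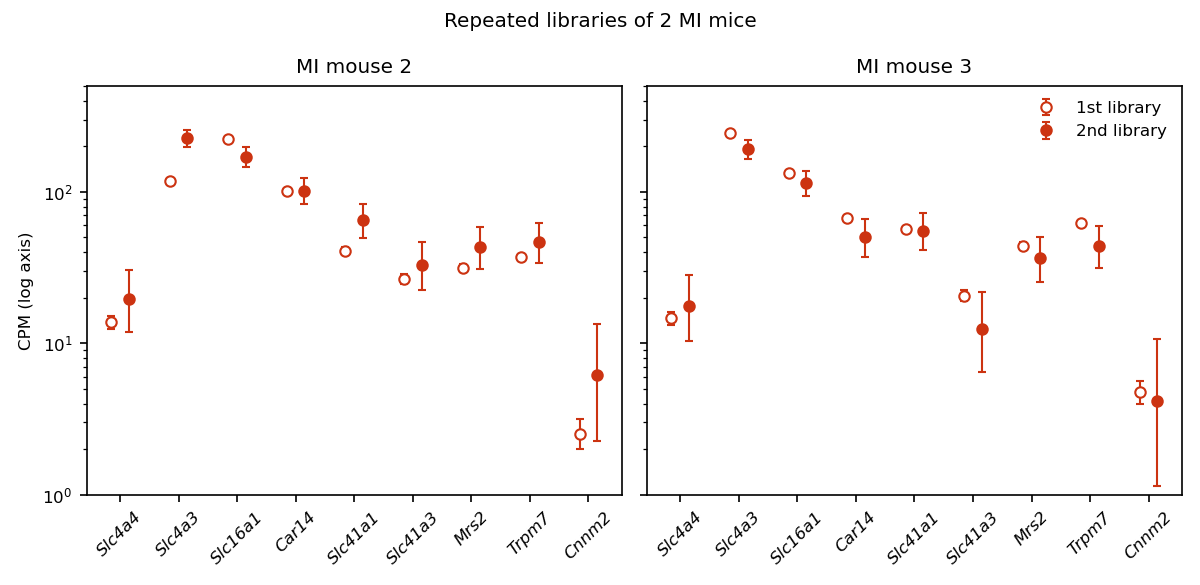
CPM on a log axis (y) of each of the 9 genes (x) in the 1st library (open) and 2nd library (filled) of MI mouse 2 (left) and MI mouse 3 (right), with 95% exact Poisson intervals. Slc4a3 is lower in the 1st library of MI mouse 2, at 117 against 226 CPM, and higher in that of MI mouse 3, at 245 against 192 CPM.

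MI mice were compared with sham vehicle mice first. The labels of the MI mice name no vehicle, so an effect of ligation and one of the vehicle cannot be told apart here. In MI against sham vehicle mice all 8 genes with enough counts had negative fold changes, from -1.42 in Slc41a3 to -0.04 in Trpm7 on the log2 scale, with a median of -0.58 beside 0.005 over all 9688 genes tested. Slc41a3 was 60.5 ± 0.702 CPM in sham vehicle and 23.7 ± 3.25 CPM in MI mice (SD, n = 3 each, libraries of a mouse summed). The SD of 0.702 CPM lies below the counting error of these values. The log2 fold change of Slc41a3 was -1.42 ± 0.24 (SE, edgeR), and -1.45 ± 0.28 in the lower-depth libraries. Slc4a4 was 29.8 ± 7.72 and 14.3 ± 0.403 CPM, a log2 fold change of -1.14 ± 0.23. In the lower-depth libraries the MI mice had 17.2 ± 2.71 CPM of Slc4a4, and the log2 fold change was -0.87 ± 0.25. These are the 2 of 8 genes that were among the calls from which they had been chosen, in a comparison that called 0.155% of all genes, 0.0826% as lower, and nothing is read from that count. In the lower-depth libraries 0 of 8 were called, beside 0.0736% of all genes.

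Among the genes of smaller difference in MI against sham vehicle mice, Slc41a1 had a log2 fold change of -0.74 ± 0.18, Mrs2 of -0.59 ± 0.22 and Slc4a3 of -0.58 ± 0.24. In the lower-depth libraries they had -0.51 ± 0.16, -0.46 ± 0.21 and -0.41 ± 0.19. Car14 and Slc16a1 had -0.26 ± 0.26 and -0.13 ± 0.24, and without MI mouse 3 they had 0.01 and 0.12. For 5 of the 8 genes (Slc4a4, Slc4a3, Slc41a1, Slc41a3 and Mrs2) the MI mice lay wholly below the sham vehicle mice, which 4.95% of all tested genes did. For Slc4a3 and Mrs2 the gap to MI mouse 1 was under 1 CPM. As the genes were chosen with results of this comparison known, nothing is read from that share.

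The calls of Slc4a4 and Slc41a3 depended on single mice. Their fold changes stayed negative in every fit without 1 mouse. Every MI mouse lay below every sham vehicle mouse, so leaving out 1 mouse could hardly turn the sign, and nothing is read from it. When 1 of the 10 mice was left out at a time, Slc41a3 ranged from -1.70 to -1.19 and was called in 4 of 10 fits, those without sham vehicle mouse 3, MI mouse 1, MI mouse 2 or NECA-treated mouse 4. Slc4a4 ranged from -1.24 to -1.04 and was called in 2 of 10, those without MI mouse 1 or MI mouse 2. Without sham vehicle mouse 3, the heart with atrial transcripts, Slc4a4 was at -1.04 and Slc41a3 at -1.50. Without MI mouse 1, Slc41a1 at -0.89 and Slc4a3 at -0.89 were called as well, in a fit that called 310 genes in place of 15. That fit kept only MI mice with a 1st library, against sham vehicle mice without one, so depth and group could not be told apart. Slc41a1 was also called with DESeq2 (-0.78, DESeq2 adjusted p = 0.00873), which called 128 genes.

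NECA-treated MI mice were next compared with MI mice, with which they share the ligation. The MI mice are those by which Slc4a4 and Slc41a3 had been chosen, so the comparisons are not independent of each other. Transcripts of Slc4a4 and Slc41a1 were higher in all 4 NECA-treated mice than in all MI mice, but neither passed the test. Slc41a1 was 81.5 ± 1.85 CPM with NECA (SD, n = 4) and 54.7 ± 12.2 CPM in MI mice (n = 3), a log2 fold change of 0.65 ± 0.17 (SE, 95% interval 0.30 to 0.99, edgeR adjusted p = 0.284), and 0.41 ± 0.16 in the lower-depth libraries (adjusted p = 0.793). Its adjusted p ranged from 0.0274 to 0.999 over all alternatives and passed only without MI mouse 1, with a log2 fold change of 0.79 in a fit that called 121 genes in place of 1. In that fit every MI mouse had a 1st library and no NECA-treated mouse had one, so depth and group could not be told apart. Slc4a4 was 22.1 ± 1.67 and 14.3 ± 0.403 CPM, a log2 fold change of 0.65 ± 0.22 (edgeR adjusted p = 0.318). In the lower-depth libraries the MI mice had 17.2 ± 2.71 CPM, and the log2 fold change was 0.38 ± 0.24 (edgeR adjusted p = 0.835). Groups that did not overlap, with NECA higher, were found in 3.76% of all genes and in 2 of these 8. As Slc4a4, among these 2, had been chosen by these MI mice, nothing is read from that share.

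Of the 8 genes, 0 passed in NECA-treated MI against MI mice, where 0.0103% of all genes were called (edgeR), and 3 of the 8 had an unadjusted p under 0.05, as had 1060 of the 9688 genes. In the lower-depth libraries 0 of 8 passed beside 0% of all genes, with 1 of 8 and 577 of 9505 genes at an unadjusted p under 0.05. DESeq2 and limma also called 0 of them. Slc4a3 had 0.48 ± 0.22 (95% interval 0.01 to 0.95, edgeR adjusted p = 0.443), Mrs2 0.38 ± 0.21 and Slc41a3 0.33 ± 0.24. Slc16a1 had 0.11 ± 0.22 (95% interval -0.36 to 0.57), Car14 0.01 ± 0.25 (-0.52 to 0.54) and Trpm7 -0.02 ± 0.20 (-0.44 to 0.40), and intervals of this width do not show that these 3 genes were alike in both groups. The median over the 8 genes was 0.36, beside -0.018 over all genes, and 0.31 in the lower-depth libraries.

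Last, NECA-treated MI mice were compared with sham vehicle mice, a comparison in which every library is of lower depth. It shares sham vehicle mice with the first comparison and NECA-treated mice with the second. Slc4a4 and Slc41a3 had been chosen by these same sham vehicle mice, so their values here are not independent of that choice. Slc41a3 was 29.6 ± 7.45 CPM (SD, n = 4) against 60.5 ± 0.702 CPM (n = 3), lower in 4 of 4 treated mice, with a log2 fold change of -1.10 ± 0.24 (95% interval -1.59 to -0.60). It did not pass (edgeR adjusted p = 0.461), and over the alternatives its adjusted p ranged from 0.00312 to 1, passing with only these 2 groups in the fit (adjusted p = 0.0208), with no filter on low counts, and in the lower-depth libraries without MI mouse 3 (adjusted p = 0.0134). These fits called 7, 27 and 7 genes in all. Its log2 fold change stayed between -1.17 and -0.95. Slc4a4 had -0.48 ± 0.22 (edgeR adjusted p = 0.999) and Car14 -0.25 ± 0.25.

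The remaining 5 genes had log2 fold changes of -0.21 (Mrs2) to -0.03 (Slc16a1) in NECA-treated MI against sham vehicle mice. The 95% interval of Slc41a1 was -0.45 to 0.25, of Slc4a3 -0.56 to 0.37 and of Trpm7 -0.51 to 0.39. Of the 8 genes, 0 passed (edgeR) beside 0% of all genes, and in the lower-depth libraries 0 of 8 beside 0.0105%, with 2 of the 8 and 411 of all genes at an unadjusted p under 0.05 over all libraries. DESeq2 and limma called 0 of the 8. Slc41a3 was the 1 gene of 8 whose groups did not overlap, which 2.78% of all genes showed in the lower direction. As Slc41a3 had been chosen by these sham vehicle mice, nothing is read from that share. The median over the 8 genes was -0.15, beside -0.012 over all genes.

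**Figure D3:**
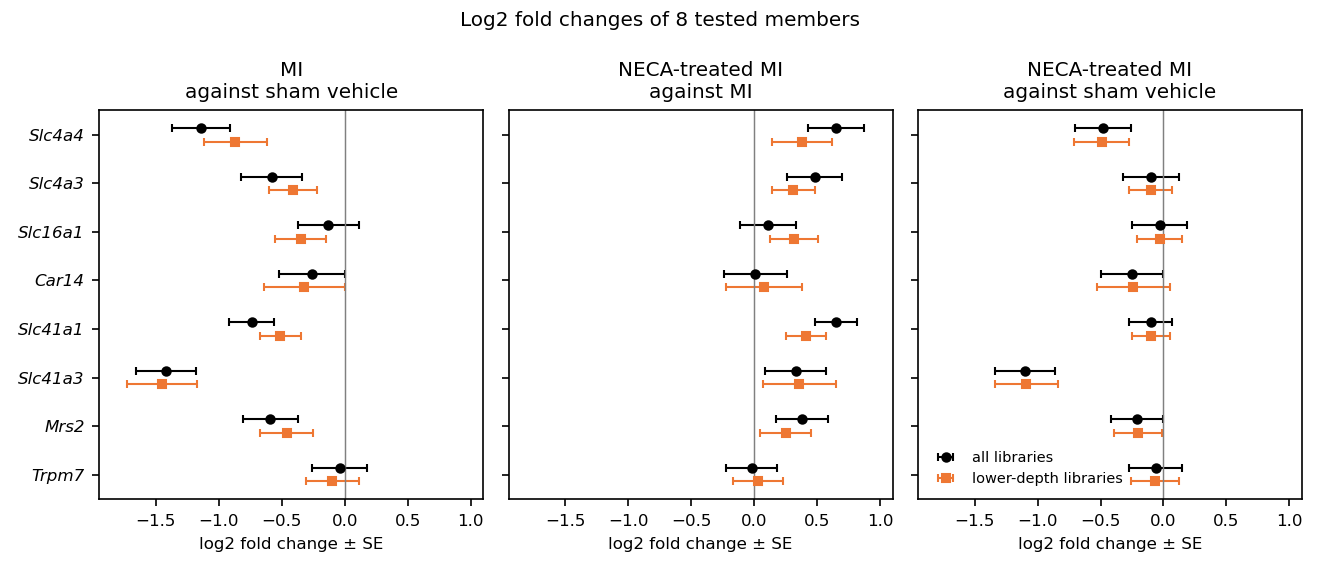
Log2 fold change ± SE (x axis) of the 8 tested genes (y axis) in each comparison, from all libraries (black circles) and from the 10 lower-depth libraries (orange squares). Slc41a3 is at -1.42 in MI and -1.10 in NECA-treated MI against sham vehicle mice, while Slc41a1 is at -0.74 and -0.10.

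The summed CPM of 8 cardiomyocyte markers was 53000 to 61100 in sham vehicle mice, 38500 to 52200 in MI libraries and 52900 to 57500 in NECA-treated mice, and MI mouse 3 was lowest. The 8 markers had a median log2 fold change of -0.46 in MI against sham vehicle mice, 0.18 in NECA-treated MI against MI mice and -0.15 in NECA-treated MI against sham vehicle mice. In each comparison 0 of 8 passed (edgeR, with 4, 3 and 0 at an unadjusted p under 0.05), beside 0.155%, 0.0103% and 0% of all genes. The markers did not move alike: in MI against sham vehicle mice 6 were negative and 2 positive. Myh6, the alpha myosin heavy chain and the most abundant of them, had 28000 to 28900 CPM in sham vehicle mice and 15500 to 25500 CPM in MI libraries. Tnni3, cardiac troponin I, had 2790 to 3300 CPM in sham vehicle mice and 2820 to 4960 CPM in MI libraries. The 4960 CPM was that of the 1st library of MI mouse 2. The lower-depth MI libraries had 2860 to 3330 CPM of Tnni3, which overlapped with the sham vehicle mice. The 8 fibroblast markers, all above 0 in fold change in MI against sham vehicle mice (median 2.20), had sums between 551 and 1710 CPM in sham vehicle mice and between 1210 and 11700 CPM in MI libraries, highest in MI mouse 3, and 1360 to 4550 CPM in NECA-treated mice. The 8 macrophage markers summed to 185 to 415, 311 to 1060 and 435 to 725 CPM in the same order. The part of cell makeup in the differences of Slc4a4, Slc41a1 and Slc4a3 was not tested. In bulk tissue, fewer cells of a type and less RNA per cell cannot be told apart.

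Divided by the sum of the cardiomyocyte markers, to which Myh6 adds most, Slc41a3 was lower in every infarcted heart than in every sham vehicle mouse, and the groups of each other gene overlapped. Slc41a3 had 0.983 to 1.16 CPM per 1000 CPM of the markers in sham vehicle mice, 0.324 to 0.651 in MI libraries and 0.327 to 0.661 in NECA-treated mice. Slc4a4 had 0.365 to 0.712 in sham vehicle mice, 0.272 to 0.460 in MI libraries and 0.349 to 0.431 in NECA-treated mice, and these overlapped. Slc41a1 had 1.28 to 1.71, 0.948 to 1.43 and 1.38 to 1.57 in the same order, and Slc4a3, Mrs2, Slc16a1, Car14, Trpm7 and Cnnm2 overlapped between sham vehicle and MI as well. This ratio was added after the values were seen and is a description. Slc41a3 had been chosen by its difference between these sham vehicle and MI mice, so nothing is read from its gap here.

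**Figure D4:**
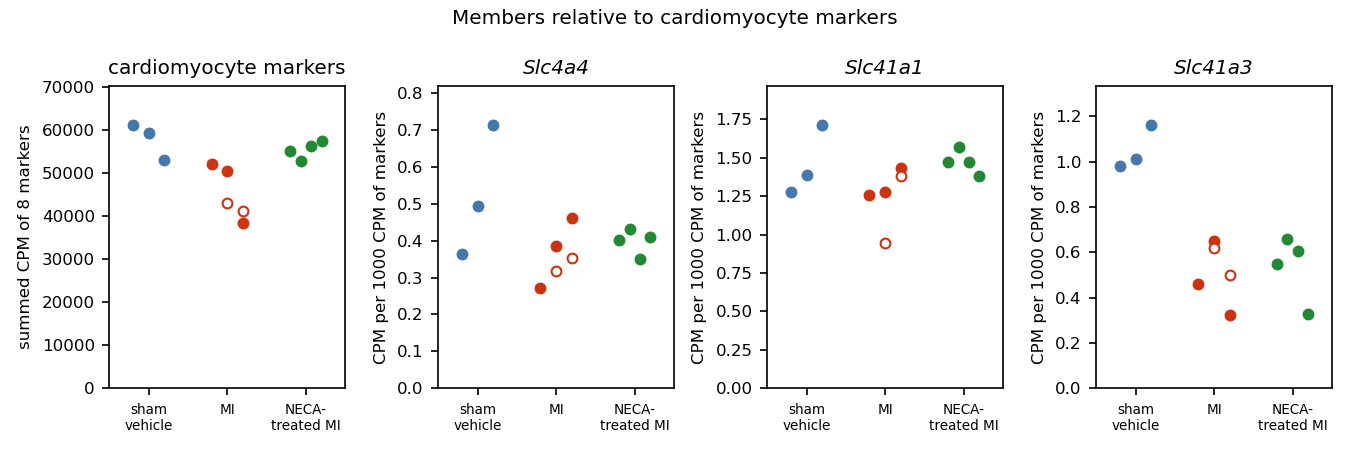
Summed CPM of 8 cardiomyocyte markers (left) and CPM of Slc4a4, Slc41a1 and Slc41a3 per 1000 CPM of those markers (y axes, from 0) in each library by group; open points are the 1st libraries. Slc41a3, which had been chosen by its difference between sham vehicle and MI mice, is at 0.983 or more in sham vehicle mice. In all infarcted hearts it is at 0.661 or less.

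Other genes of acid-base transport did not pass in any comparison. Of 39 listed genes 15 had enough counts, and 0 of these 15 were called in either direction in MI against sham vehicle mice (edgeR, beside 0.155% of all genes; 0 of 15 at an unadjusted p under 0.05), with 9 negative and a median log2 fold change of -0.05. Basigin (Bsg), the chaperone of MCT1, was 858 CPM in sham vehicle, 910 CPM in MI and 859 CPM in NECA-treated mice, with a log2 fold change of 0.01 ± 0.23 for MI, and -0.17 ± 0.18 in the lower-depth libraries. Tesc, a calcium-binding partner of the sodium-proton exchanger NHE1, had 0.20 ± 0.22, and -0.11 ± 0.18 in the lower-depth libraries. The smallest p-values in MI against sham vehicle mice were those of Slc4a7, an electroneutral sodium-bicarbonate cotransporter (-0.75 ± 0.39, edgeR adjusted p = 0.388), and Slc9a8, a sodium-proton exchanger (-0.42 ± 0.24, adjusted p = 0.439). In the lower-depth libraries Slc4a7 was at -0.92 ± 0.50 and Slc9a8 at 0.06 ± 0.23, so the direction of Bsg, Tesc and Slc9a8 turned with the libraries used.

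Car3, a carbonic anhydrase abundant in fat and skeletal muscle, ranged from 0 to 536 CPM. Its highest value, 536 CPM, was that of sham vehicle mouse 3, which also had the highest sum of the 4 adipocyte markers at 663 CPM, and the other sham vehicle mice had 0 and 2.26 CPM of Car3. Both were low in MI mouse 3, with 1.58 and 0 CPM of adipocyte markers and 0.995 and 1.04 CPM of Car3. The part of fat in its fold change of -1.77 ± 2.13 in MI against sham vehicle mice was not tested.

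Between NECA-treated MI and MI mice 0 of the 15 acid-base genes passed (edgeR, 0 at an unadjusted p under 0.05, median 0.03), beside 0.0103% of all genes. Slc4a7 at 0.46 ± 0.37 and Car4, a membrane carbonic anhydrase, at -0.43 ± 0.36 had the smallest p. In the lower-depth libraries these genes were at 0.64 ± 0.48 and -0.03 ± 0.47. In NECA-treated MI against sham vehicle mice 0 of 15 passed as well (0 at an unadjusted p under 0.05, median -0.05), beside 0% of all genes. There Slc26a6, an anion exchanger, had -0.41 ± 0.34 and Ahcyl2, a relative of the bicarbonate cotransporter regulator IRBIT, had -0.34 ± 0.29. With so few calls over all genes, 0 of 15 does not set this list apart.

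Other magnesium genes likewise did not pass. Of 18 listed, 17 had a row and 9 enough counts, and 0 of 9 were called in each comparison (edgeR, with 1, 0 and 0 at an unadjusted p under 0.05). Of all genes 0.155%, 0.0103% and 0% were called in the same order, so 0 of 9 does not set this list apart. Nipal3, of a family of magnesium transporters, had the smallest p in MI against sham vehicle mice, at -0.66 ± 0.21 (adjusted p = 0.173), and -0.49 ± 0.23 in the lower-depth libraries. It was 33.4 CPM in sham vehicle, 23.3 CPM in MI and 29.5 CPM in NECA-treated mice, and 0.41 ± 0.20 in NECA-treated MI against MI mice (adjusted p = 0.462). Mmgt1, a membrane protein with magnesium transport activity, had -0.39 ± 0.22 in MI against sham vehicle mice, and -0.46 ± 0.21 in the lower-depth libraries.

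The phosphatases Ptp4a3, Ptp4a2 and Ptp4a1, which bind CNNM proteins, were the most abundant magnesium genes by count, at 267, 175 and 83.5 CPM over all mice, with log2 fold changes of -0.03, -0.22 and 0.33 in MI against sham vehicle mice, and 0.10, -0.25 and 0.15 in the lower-depth libraries. Ptp4a1 has 2 rows of the same symbol, of which the one with more counts was used, and its values are uncertain. Nipa1, a magnesium transporter of the cell surface and endosomes, had the smallest p of the list in NECA-treated MI against sham vehicle mice, at 0.85 ± 0.46 (adjusted p = 0.999), and 0.65 ± 0.39 in NECA-treated MI against MI mice (0.90 ± 0.50 in the lower-depth libraries). Medians of the 9 genes were -0.15, 0.15 and 0.01 in the 3 comparisons.

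**Figure D5:**
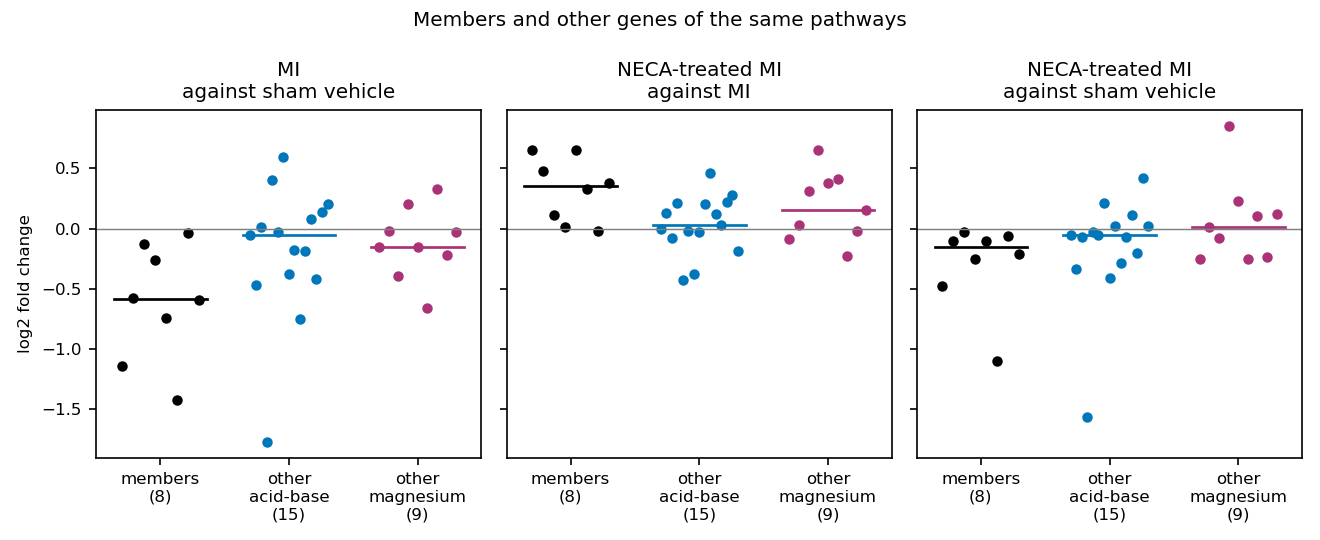
Log2 fold changes (y axis) of the 8 chosen genes, 15 other acid-base genes and 9 other magnesium genes (x axis) in each comparison, with the median of each list as a line. In MI against sham vehicle mice the medians are -0.58, -0.05 and -0.15, the chosen genes having been picked with this comparison known; the lowest acid-base point is Car3.

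The authors' length-corrected values gave another picture for Mrs2 and Slc4a4. The TPM of Mrs2 was 7.10 to 8.04 in sham vehicle mice and 16.5, 8.26, 13.9 and 18.0 in NECA-treated mice 1 to 4, although its CPM did not differ in this way. TPM divided by CPM was 0.125 to 0.137 in all lower-depth sham vehicle and MI libraries and in NECA-treated mouse 2 (0.134), and 0.280, 0.354 and 0.330 in the other 3 NECA-treated mice. Within a gene this ratio varies with the length that the authors' quantification assigned in each library, and isoform values are not analysed here. With limma on log2(TPM + 1), Mrs2 had 0.77 in NECA-treated MI against sham vehicle mice, in place of -0.21 with counts, and did not pass (adjusted p = 0.846). For Slc4a4 the ratio was 0.203 in MI mouse 1 and 0.11 to 0.132 in the other lower-depth libraries. MI mouse 1 thus had 2.89 TPM of Slc4a4, above the 2.46 TPM of sham vehicle mouse 1, so that the MI and sham vehicle mice, apart in CPM, overlapped in TPM. Its limma log2 fold change was -0.50, in place of -1.14 with counts, and was not called. The ratio varied 2.70-fold for Trpm7 and 4.16-fold for Cnnm2 over the 10 lower-depth libraries, for Trpm7 within each group, and 1.08-fold for Slc41a3.

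The genes whose levels followed Slc41a3 most closely over the 10 lower-depth libraries, among 5627 with at least 20 CPM, were Dnaja3, a mitochondrial co-chaperone (Pearson r = 0.948 of log2 CPM), Filip1, which binds filamin (0.919), and Mrpl37, of the mitochondrial ribosome (0.918). For Slc4a4 they were Lin7c, a scaffold protein (0.918), Med24, a subunit of the Mediator complex (0.915), and Anp32e, a histone chaperone (0.912). Dnaja3 had 119 CPM in sham vehicle, 84.4 CPM in MI and 96.6 CPM in NECA-treated mice, and Lin7c 34.4, 23.5 and 29.4 CPM. These are the highest of many correlations over libraries that share groups and depth, and are given as a description.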

How the data were processed

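The authors deposited 2 tables with 1 column for each of 12 libraries from 10 mice. One holds the authors' expected counts per gene as whole numbers. The other holds their deposited log2(TPM + 1). Per the submitters' processing notes, FastQC 0.11.9, STAR and RSEM were used with GRCm39. Annotation release, molecular identifiers and strand setting are not given in these sources. Of 57054 rows, 56647 had a value in every library; 306 had none outside the 1st libraries and 101 none in them. Symbols came from GENCODE M21 by Ensembl identifier (52029 rows), and no coordinates were used.

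Counts of the 2 libraries of MI mice 2 and 3 were summed per mouse. CPM are counts per 1000000 of a library or mouse. edgeR 4.0.16 in R 4.3.3 (filterByExpr, TMM, robust quasi-likelihood, 1 fit over 10 mice, two-sided) tested 9688 genes, and 9505 in the lower-depth libraries, with Benjamini-Hochberg adjusted p under 0.05 over all genes as the threshold. TMM factors were 0.883 to 1.19. Standard errors are the log2 fold change over the square root of F. DESeq2 1.42.0, limma 3.58.1 and other scalings were alternatives. The mice carry numbers but nothing says how they were kept. The p-values measure the spread between these mice. In the MI group of the fit over all libraries, that spread also holds the difference between 1st and lower-depth libraries. The genes, lists and tests were chosen with earlier results of these data known. The text names all 9 genes, and of each list of other genes those that passed, the 3 of highest mean CPM and in each comparison the 2 of smallest p; genes of like pattern were the 3 of highest r for Slc4a4 and Slc41a3.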

Additional observations from a re-analysis of the deposited data

How the results depend on the processing

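Counts of genes called moved more than the values of the 8 genes. In MI against sham vehicle mice 15 genes were called, and 7 with the lower-depth libraries, 12 with the 1st libraries alone for MI mice 2 and 3, 6 without scaling, 128 with DESeq2, 0 with limma (888 at an unadjusted p under 0.05), 346 without the filter, 0 with only the groups compared (880 unadjusted), 1 with the lower-depth libraries less MI mouse 3, and 50 with the lower-depth libraries less sham vehicle mouse 3. Leaving out 1 mouse gave 0 (sham vehicle mouse 1 or 2) to 310 (MI mouse 1). Without MI mouse 1 only MI mice with a 1st library are left, so depth cannot be told apart from group in that fit. In NECA-treated MI against MI mice 1 gene was called, and 0 with the lower-depth libraries, with or without MI mouse 3 or sham vehicle mouse 3, 0 without scaling or with limma, 16 with DESeq2, 74 without the filter, and 0 to 121 (without MI mouse 1) when 1 mouse was left out. In NECA-treated MI against sham vehicle mice 0 were called, and 1 with the lower-depth libraries, 7 with these less MI mouse 3, 5 with these less sham vehicle mouse 3, 3 with DESeq2, 27 without the filter, 7 with only the groups compared, and 0 to 2 when 1 mouse was left out. The alternative without sham vehicle mouse 3 in the lower-depth libraries was chosen after the data were seen.

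Slc4a4 in MI against sham vehicle mice was not called with the lower-depth libraries (-0.87; without MI mouse 3 -0.83, without sham vehicle mouse 3 -0.77), the 1st libraries alone (-1.15), no scaling (-1.06), limma (-0.50) or only the groups compared (-1.12), and ranged from -1.24 to -1.04 without 1 mouse. Slc41a3 was not called with the lower-depth libraries (-1.45; without MI mouse 3 -1.11), limma (-1.33) or only the groups compared (-1.40), and ranged from -1.70 to -1.19 without 1 mouse. DESeq2 gave these 2 genes log2 fold changes of -1.16 (Slc4a4) and -1.44 (Slc41a3) and an unadjusted p, but no adjusted p. Why the adjusted p was missing was not tested.

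Changes of sign were found in genes that were not called. In MI against sham vehicle mice Trpm7 was 0.07 without scaling and 0.03 with limma, and -0.16 to 0.07 without 1 mouse, Slc16a1 -0.45 to 0.12 and Car14 -0.48 to 0.02. In NECA-treated MI against MI mice Car14 was -0.03 without the filter, 0.00 with only the groups compared, -0.24 in the lower-depth libraries without MI mouse 3 and -0.26 to 0.23 without 1 mouse. Trpm7 was 0.03 in the lower-depth libraries, 0.04 there without sham vehicle mouse 3, 0.00 with DESeq2 and -0.21 to 0.09 without 1 mouse, and Slc16a1 -0.16 to 0.42. In NECA-treated MI against sham vehicle mice Slc16a1 was 0.03 without scaling, 0.06 with limma and -0.11 to 0.06 without 1 mouse, Car14 -0.40 to 0.01, Trpm7 -0.24 to 0.06 and Mrs2 0.77 with limma. Over all alternatives and the 8 genes, direction and call were kept in 131 values of MI against sham vehicle mice, where 26 lost the call, 6 changed sign and 3 gained a call. They were kept in 152 values of NECA-treated MI against MI mice (15 changed sign, 1 gained a call) and in 158 of NECA-treated MI against sham vehicle mice (7 changed sign, 3 gained a call).

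No pairing by mouse number was seen: same-numbered deviations correlated at -0.014, 0.25 and 0.25 between MI and sham vehicle, -0.013, -0.30 and 0.035 between NECA-treated MI and MI, and -0.10, -0.24 and -0.22 between NECA-treated MI and sham vehicle mice. Mice of unlike number were not compared in this way, so pairing is not excluded. With the number as a replicate block, 6, 0 and 1 genes were called in the 3 comparisons, Slc4a4 was at -1.15 in MI against sham vehicle mice and not called, and Car14 was at -0.05 in NECA-treated MI against MI mice. Depth limits Cnnm2 most: 3 counts, the least taken as detection, were 2.26 to 3.13 CPM in the lower-depth libraries.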
